A study of Mus musculus with 80 samples.

Results

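The 8 genes described here were the VEGF ligands Vegfa, Vegfb and Vegfc, their receptor tyrosine kinases Flt1, Kdr and Flt4, and the co-receptors Nrp1 and Nrp2. They were chosen by name and are 8 of the 32764 genes in the deposited count tables. All 8 were counted in every one of the 80 libraries and passed the low-count filter in each of the 4 tissues, so none was left out. Poly(A) RNA was sequenced from liver, muscle, brown fat (BAT) and the inguinal white fat depot (iWAT) of homozygous male mice that were WT, FGF21 KO, UCP1 KO or dKO, with 5 libraries per genotype and tissue. The dKO mice are the double knockout that the labels spell UCP1/FGF12 double KO, and the paper names UCP1/FGF21. UCP1 is the uncoupling protein of thermogenic fat, and FGF21 is a hormone that stressed liver and fat release. Every mouse, WT included, was born and raised at 30°C, and at 10 to 12 weeks of age was moved to room temperature and from chow to a high-fat diet for 3 weeks. The knockouts are constitutive and affect the whole body, so no difference below can be assigned to the tissue in which it was measured.

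VEGF proteins are secreted growth factors that act mainly on the endothelial cells lining blood and lymph vessels. VEGF-A binds FLT1 and KDR and is the main driver of capillary growth, VEGF-B binds FLT1 and is known from oxidative tissues such as heart, muscle and brown fat, and VEGF-C binds FLT4 and drives lymphatic growth. Neuropilins bind both VEGF and secreted semaphorins. Brown fat is a densely capillarised tissue, and its adipocytes are a known source of VEGF-A.

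Total gene counts ranged from 28691377 to 50380696 per library. Fgf21 was at 0 to 3 counts in all FGF21 KO and dKO libraries of all tissues, against 353 to 1728 in UCP1 KO BAT. In WT it was at 51 to 107 counts in liver, 7 to 10 in BAT, 2 to 11 in iWAT and 0 to 3 in muscle, so in muscle it is no check of the FGF21 labels. Ucp1 was still counted in BAT of mice lacking UCP1, with 24291 to 90118 counts against 98548 to 258096 in WT and FGF21 KO, and in iWAT the libraries labelled UCP1 KO held 3942 to 20264 counts, more than the 109 to 776 of WT. Counts per gene do not show which part of the transcript the reads came from, so Ucp1 is no check of the UCP1 labels here. Hepatocyte, skeletal muscle and adipocyte markers stood highest in liver, muscle and fat as labelled. Some libraries also carried markers of a neighbouring tissue. The skeletal muscle score, the mean log2(CPM + 0.1) of 10 muscle genes, ran from 1.89 to 5.40 in BAT of WT and FGF21 KO mice and from 2.74 to 9.70 in UCP1 KO and dKO mice. In iWAT the same score ran from 1.83 to 10.8, and summed muscle markers reached 12401 CPM in 1 WT library and 25993 CPM in 1 UCP1 KO library, against medians of 155 and 141 CPM in these groups. The score of 8 lymph node genes split the iWAT libraries into 11 at or below 1.81 and 9 at or above 6.55. CPM are counts scaled to a common library total after TMM scaling within a tissue.

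On GRCm38, Vegfa lies at chr17:46016993-46032369 (minus strand), Vegfb at chr19:6982473-6987651 (minus), Vegfc at chr8:54077606-54187096 (plus), Flt1 at chr5:147561604-147726011 (minus), Kdr at chr5:75932827-75978458 (minus), Flt4 at chr11:49609263-49652739 (plus), Nrp1 at chr8:128358604-128503363 (plus) and Nrp2 at chr1:62703285-62818695 (plus). All are protein-coding genes, and counts cover their exons. Vegfc and Nrp1 share chromosome 8 with the Ucp1 gene, at distances of 29.1 and 45.1 Mb. Annotated exons of Nrp1 share 37 bases with the microRNA gene Mir1903, and no other member shares exon sequence with another annotated gene.

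The sequence before the start site is shown for Vegfb, Flt1 and Nrp1, the members that passed the test in BAT. Each is the 250 bases upstream of the RefSeq start (GRCm38.p6), 5′ to 3′ on the gene's strand, with motif matches in capitals. The windows are chr19:6987652-6987901 for Vegfb, chr5:147726012-147726261 for Flt1 and chr8:128358823-128359072 for Nrp1. The RefSeq starts of Vegfb and Flt1 are the annotated gene starts, while that of Nrp1 lies 469 bases inside the span given above, so its window is within the annotated gene.
Vegfb: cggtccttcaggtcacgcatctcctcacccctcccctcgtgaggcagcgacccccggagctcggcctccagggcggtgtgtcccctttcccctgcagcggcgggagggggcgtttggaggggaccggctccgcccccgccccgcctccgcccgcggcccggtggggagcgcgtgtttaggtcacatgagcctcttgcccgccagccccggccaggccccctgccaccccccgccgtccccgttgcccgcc
Flt1: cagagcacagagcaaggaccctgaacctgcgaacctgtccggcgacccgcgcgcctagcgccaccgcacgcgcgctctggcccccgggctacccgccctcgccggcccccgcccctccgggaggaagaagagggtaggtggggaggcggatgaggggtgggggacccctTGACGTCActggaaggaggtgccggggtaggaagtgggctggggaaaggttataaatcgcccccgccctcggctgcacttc
Nrp1: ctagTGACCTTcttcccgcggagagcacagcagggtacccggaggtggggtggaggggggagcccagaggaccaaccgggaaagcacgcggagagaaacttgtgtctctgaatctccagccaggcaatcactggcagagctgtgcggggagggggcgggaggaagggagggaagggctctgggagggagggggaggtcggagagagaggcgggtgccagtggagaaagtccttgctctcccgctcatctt
Of 4 motifs searched on both strands, the Vegfb window held none. The Flt1 window held the cAMP response element TGACGTCA (capitals, first base 81 bases before the start), a palindrome present in 1.55% of 32851 windows of the same length. This motif was added to the search after the Flt1 sequence had been read. The Nrp1 window held TGACCTT, the reverse complement of the estrogen-related receptor half-site AAGGTCA (246 bases before the start), present in 4.08%. ACGTG, the core of the hypoxia response element, is in 16.6% of windows and in none of these. It occurs among the members only before an internal Vegfa start at position 46025163. CCGGAA, the core bound by ETS factors, is in 12.0% of windows and among the members only before Kdr. These matches describe letters in short windows and not bound sites.

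In WT mice, BAT held the highest mean of Vegfa, Vegfb, Flt1, Kdr, Nrp1 and Nrp2, and liver the highest mean of Flt4 and, with TMM scaling, of Vegfc. These levels are CPM on a TMM scale set over the 20 WT libraries together. Per kilobase of annotated exon, the order of mean levels in BAT was Vegfa (149 CPM per kb), Nrp1 (85.5), Vegfb (68.5), Kdr (41.0), Nrp2 (18.2), Flt1 (11.9), Flt4 (1.85) and Vegfc (1.04). VEGF-A transcripts thus stood at the top of the family in BAT and VEGF-C transcripts at the bottom.

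**Figure D1:**
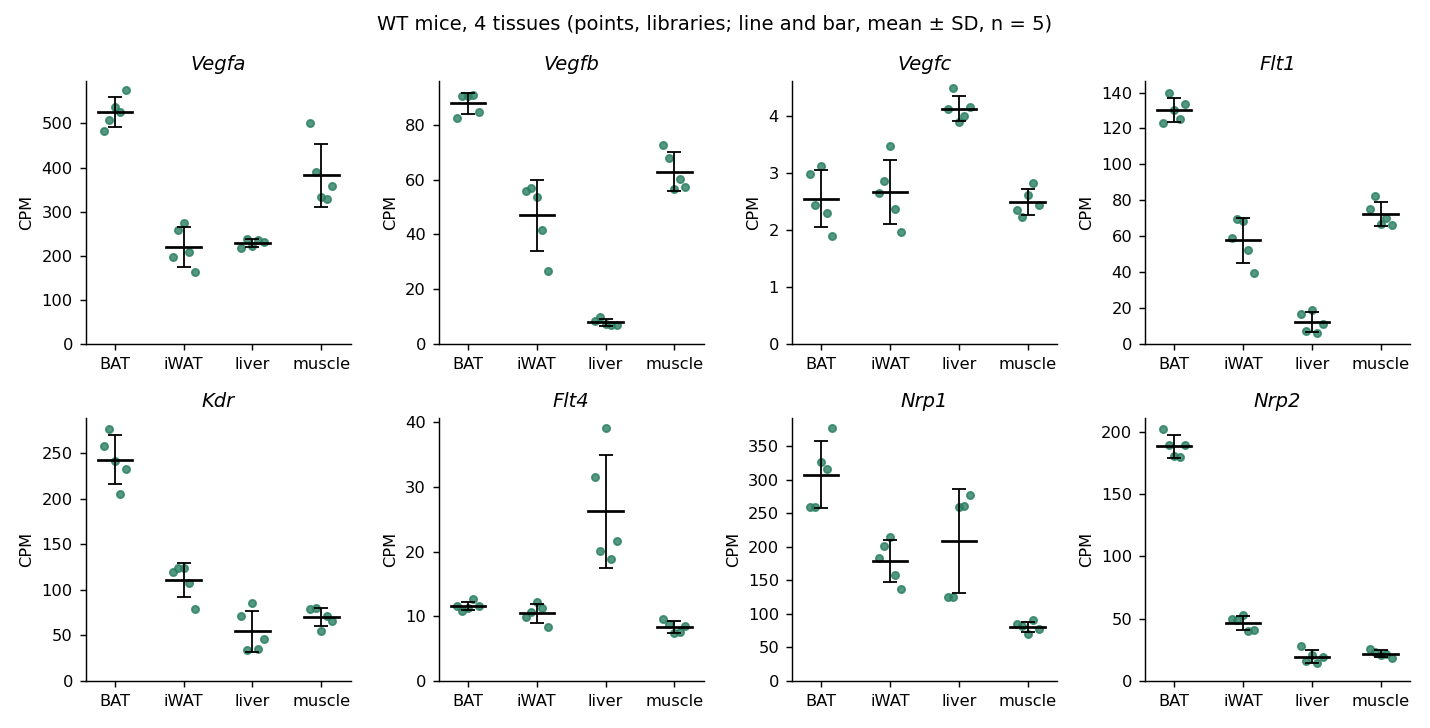
CPM of each gene (vertical axis, from 0) in the 5 WT libraries of each tissue (horizontal axis), with the mean as a line and the SD as a bar. Vegfb and Flt1 are lowest in liver, at means of 7.94 and 12.2 CPM, while Flt4 and Vegfc are highest there on this TMM scale (by library totals, Vegfc is highest in iWAT).

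The place of iWAT in this order depended on the scaling. The TMM factors were 1.5 to 1.82 for the iWAT libraries and 0.75 to 0.99 for the other tissues. With library totals alone, an alternative added after seeing the data, the median log2 difference of all genes moved from -0.10 to -0.84 in BAT against iWAT, from 0.05 to 1.14 in iWAT against liver and from 0.23 to 1.21 in iWAT against muscle. On that scale iWAT lay above liver for Vegfa (356 ± 57.5 against 175 ± 5.70 CPM, adjusted p = 3.0e-07), Vegfc (4.30 ± 0.68 against 3.17 ± 0.16, 0.0057) and Nrp1 (288 ± 32.7 against 161 ± 61.1, 0.00081). It also lay above muscle for Vegfb (0.53, adjusted p = 0.0013) and above BAT for Flt4 (0.0042) and Vegfc (3.8e-05), and the calls of Vegfb, Flt1, Kdr and Nrp1 in BAT against iWAT were lost. The calls of Flt4 in iWAT against liver (adjusted p = 0.17) and of Vegfc in BAT against liver (0.031) were lost too. Between BAT, liver and muscle no member changed direction. The tests that follow are on the TMM scale, and each order that places iWAT holds for that scale.

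Vegfa averaged 526 ± 34.4 CPM in BAT, 383 ± 70.8 in muscle, 229 ± 9.04 in liver and 221 ± 45.2 in iWAT (SD, n = 5 each). BAT lay above muscle by 0.46 on the log2 scale (adjusted p = 0.0038, edgeR quasi-likelihood test), a call lost without BAT replicate 5 or without muscle replicate 3, 4 or 5 (adjusted p from 0.0104 to 0.0129). In contrast, iWAT and liver did not pass against each other (log2 difference -0.05, adjusted p = 0.70), although by library totals iWAT was higher. Vegfb fell in the order BAT (87.7 ± 3.91 CPM), muscle (62.9 ± 7.03), iWAT (46.9 ± 12.9) and liver (7.94 ± 1.31). Muscle and iWAT did not pass the test against each other (-0.42, adjusted p = 0.018). BAT passed against muscle only narrowly (0.48, adjusted p = 0.0095), and that call was lost with RLE factors (adjusted p = 0.014) and with no low-count filter (0.011). The distance from each other tissue to liver was far larger, at 3.47 for BAT. Vegfc was low everywhere, with 45 to 288 counts per library over all 80. It averaged 4.14 ± 0.22 CPM in liver against 2.50 to 2.67 in the other tissues, which did not pass against each other (adjusted p from 0.56 to 0.86), whereas by library totals iWAT was highest.

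Among the receptors, Flt1 averaged 130 ± 6.77 CPM in BAT, 72.3 ± 6.63 in muscle, 57.8 ± 12.5 in iWAT and 12.2 ± 5.55 in liver. Muscle and iWAT were again not separated (adjusted p = 0.18). Kdr, the main signalling receptor of VEGF-A, averaged 243 ± 26.8 CPM in BAT, 111 ± 19.1 in iWAT, 70.2 ± 10.3 in muscle and 54.4 ± 22.9 in liver, and muscle and liver did not pass the test (adjusted p = 0.12). Flt4, a receptor of lymphatic and of fenestrated vessels, reached 26.2 ± 8.79 CPM in liver against 11.6 ± 0.67 in BAT, 10.4 ± 1.46 in iWAT and 8.37 ± 0.95 in muscle. Liver lay above each of these, by 1.18 to 1.65 on the log2 scale, and no pair of the other tissues passed. By library totals the call of iWAT against liver was lost (-0.25, adjusted p = 0.17). On that scale all pairs of the other tissues passed, with BAT above muscle by 0.71 (adjusted p = 0.0012). Nrp1 averaged 308 ± 50.01 CPM in BAT, 209 ± 77.6 in liver, 179 ± 31.5 in iWAT and 80.7 ± 7.75 in muscle, where liver and iWAT did not pass (adjusted p = 0.31). Nrp1 in BAT against liver missed the threshold in edgeR (0.56, adjusted p = 0.020). It passed in DESeq2 (0.58, 0.0086) and in edgeR by library totals (0.90, 0.00056). Nrp2 showed the steepest difference between the fat depots, at 188 ± 8.99 CPM in BAT against 46.4 ± 5.65 in iWAT (log2 difference 2.02, adjusted p = 2.5e-10). In muscle and liver it averaged 21.9 ± 2.59 and 19.6 ± 5.34 CPM (adjusted p = 0.29 between them).

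Of the 8 members, 6 passed the test between BAT and iWAT, 7 between BAT and liver, 6 between BAT and muscle, 6 between iWAT and liver, 4 between iWAT and muscle and 6 between liver and muscle. Of all 16886 genes tested, 60.7%, 67.3%, 64.1%, 74.9%, 74.4% and 73.8% passed in these comparisons. With only 8 members a share moves in large steps, and these counts say nothing particular about the family. By library totals, 4, 7, 7, 7, 6 and 6 members passed, with 75.7%, 67.4%, 64.1%, 84.5%, 83.2% and 72.9% of all genes. In the WT group, 2 of 5 iWAT libraries had a high lymph node score, and the skeletal muscle scores of the 5 ran from 1.83 to 9.89. Their part in the iWAT levels was not tested in this comparison.

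The genotype comparisons address how tissues of mice without UCP1, with and without FGF21, differ from those of WT mice. In BAT, Vegfb, Nrp1 and Flt1 fell in mice lacking UCP1, and the other 5 members had lower means without passing the test. The comparison sets the libraries of UCP1 KO and dKO mice against the others, each effect averaged over the FGF21 genotypes, and calls a gene at an adjusted p under 0.01. Of the 8 members 3 were called, all lower, where 38.4% of 15729 tested genes were called and 17.8% were called lower. The members' median log2 fold change was -0.39 against 0.0089 over all tested genes. The share called was near the background, and the count says nothing particular about the family.

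**Figure D2:**
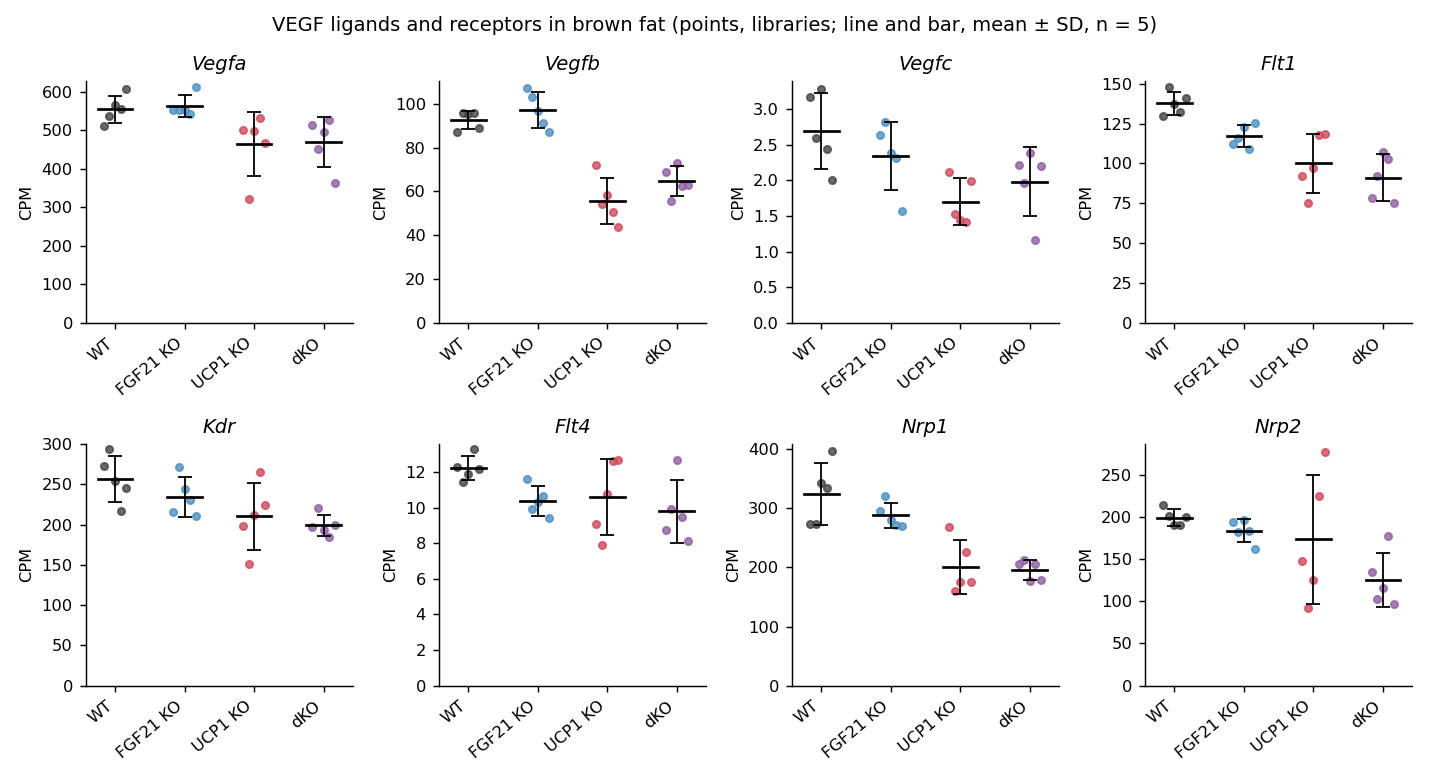
CPM of each gene in BAT (vertical axis, from 0) for 5 libraries of each genotype (horizontal axis), with the mean as a line and the SD as a bar. The 10 Vegfb values of UCP1 KO and dKO lie between 43.7 and 73.2 CPM, all below the 10 values of WT and FGF21 KO.

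Vegfb, the ligand of FLT1, stood at 87.3, 96.0, 95.2, 95.8 and 89.0 CPM in WT and at 107.2, 103.1, 96.8, 91.4 and 87.0 CPM in FGF21 KO. It stood at 72.1, 54.1, 58.1, 50.6 and 43.7 CPM in UCP1 KO and at 69.1, 55.7, 73.2, 62.4 and 63.1 CPM in dKO. Every library lacking UCP1 was below every library with it, with no overlap. The averaged log2 fold change was -0.66 ± 0.07 (SE, adjusted p = 1.0e-06). UCP1 KO against WT gave -0.73 ± 0.10 (adjusted p = 3.7e-05), and dKO against FGF21 KO gave -0.59 ± 0.10 (0.00056). Among all tested genes, 11.7% had every UCP1 KO library below every WT library, and 9.8% had every dKO library below every FGF21 KO library.

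Nrp1, the co-receptor, was the second member whose groups did not overlap. Its values were 273.8, 273.9, 343.9, 334.1 and 397.5 CPM in WT, and 295.9, 321.5, 281.1, 271.9 and 270.3 CPM in FGF21 KO. They were 268.5, 159.3, 174.9, 226.4 and 176.1 CPM in UCP1 KO, and 205.6, 212.8, 177.6, 206.0 and 179.1 CPM in dKO. The margin between the groups was small, since 1 UCP1 KO library at 268.5 CPM came close to the lowest FGF21 KO library. The averaged log2 fold change was -0.62 ± 0.09 (SE, adjusted p = 2.0e-05), with -0.69 ± 0.13 in UCP1 KO against WT (0.00042) and -0.55 ± 0.13 in dKO against FGF21 KO (0.0042). The last of these was lost when either of 2 dKO libraries (replicates 3 and 5) or either of 2 FGF21 KO libraries (replicates 1 and 2) was left out, with adjusted p from 0.0105 to 0.0126, when the muscle score was a covariate (0.052), and in the libraries with a muscle score of at most 6 (0.023). Among all tested genes, 4.63% had every library lacking UCP1 below every other library, as Vegfb and Nrp1 did.

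Flt1, the receptor of VEGF-A and VEGF-B, had 129.8, 148.0, 137.4, 132.0 and 140.8 CPM in WT and 112.3, 116.2, 122.8, 109.3 and 125.3 CPM in FGF21 KO. In UCP1 KO it had 92.1, 75.05, 97.1, 117.7 and 118.6 CPM, and in dKO 78.3, 92.2, 107.5, 103.0 and 74.9 CPM. All WT libraries were above all others, and 2 UCP1 KO libraries reached into the range of FGF21 KO. The averaged log2 fold change was -0.41 ± 0.08 (SE, adjusted p = 0.00036). The comparison of UCP1 KO with WT passed (-0.46 ± 0.11, adjusted p = 0.0039), and that of dKO with FGF21 KO did not (-0.36 ± 0.11, 0.024). The call in UCP1 KO against WT was lost with the muscle score (adjusted p = 0.014) or the endothelial score (0.016) as a covariate, with only the 2 genotypes fitted (0.013), in the libraries of low muscle score (0.013), and without WT replicate 2 (0.01001). FGF21 KO against WT gave -0.23 ± 0.11 for Flt1 and was not called. The Flt1 values of these groups did not overlap, as for 596 of 15729 genes in either direction, and 0 genes were called there.

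Vegfa, the main angiogenic ligand, ranged from 511 to 607 CPM in WT and from 542 to 614 in FGF21 KO, against 322 to 532 CPM in the UCP1 KO libraries and 363 to 526 in those of dKO. The ranges overlapped, and the averaged log2 fold change of -0.26 ± 0.08 narrowly missed the threshold (adjusted p = 0.012). Kdr had the same size of difference (-0.26 ± 0.08, adjusted p = 0.012), where UCP1 KO libraries had 151 to 265 CPM and dKO libraries 184 to 221, against 210 to 293 in the other groups. Vegfc, at 1.16 to 2.38 CPM in mice lacking UCP1 and 1.56 to 3.29 in the others, gave -0.45 ± 0.14 (adjusted p = 0.013). DESeq2, the study's own tool, called these 3 genes as well, with adjusted p from 0.0060 to 0.0074 and 42.3% of all genes called. With edgeR they were called in 3 (Vegfa), 2 (Kdr) and 3 (Vegfc) of 20 repeats with a single library removed.

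Nrp2 was the most variable member in BAT of UCP1 KO mice. Its values were 147.9, 91.5, 124.8, 224.5 and 277.2 CPM for UCP1 KO and 134.1, 103.1, 115.7, 177.1 and 96.9 CPM in dKO, compared with 162 to 214 CPM in WT and FGF21 KO. The highest and the lowest BAT value of this gene were both in UCP1 KO. The averaged log2 fold change was -0.37 ± 0.15 (SE, adjusted p = 0.049) and was not called. Flt4 ranged from 7.90 to 12.7 CPM in mice lacking UCP1 and from 9.41 to 13.3 in the others (-0.14 ± 0.09, adjusted p = 0.19).

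With all libraries, no member was called for loss of FGF21 in BAT. None was called in UCP1 KO against dKO, where 0.0636% of tested genes were called. There 1 member had an unadjusted p under 0.05 (Nrp2, 0.47 ± 0.22), as did 2035 of 15729 genes. In the libraries of low muscle score, 3 of UCP1 KO and 2 of dKO, Nrp2 was called in that comparison (1.11, adjusted p = 0.0058, background 1.29%). None was called in FGF21 KO against WT or in the interaction of both losses, where 0% of genes were called. At an unadjusted p under 0.05 there were 0 members in either, against 1345 and 845 of 15729 genes. DESeq2 called none in these 3 comparisons with all libraries (0.356%, 0.211% and 0.00636% of genes called). For Vegfb the interval of UCP1 KO against dKO ran from -0.43 to 0.0016 and for Nrp1 from -0.23 to 0.30 (95%, log2, from the t distribution of the test), so that effects of FGF21 loss of that size remain possible. Over all 4 genotypes 3 members were called (background 29.7%), in UCP1 KO against WT 3 (25.2% of all genes called and 11.4% called lower), and in dKO against FGF21 KO 2 (13.5% and 6.8%).

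Markers of other cell types moved in the same BAT libraries, by the averaged contrast in which 38.4% of all tested genes were called. Of 10 skeletal muscle markers, 9 were called higher in mice lacking UCP1, and their summed level ranged from 92.5 to 575 CPM in WT and FGF21 KO and from 93.4 to 10726 CPM in UCP1 KO and dKO. Of 5 macrophage markers 4 were higher (Cd68 by 1.47), with sums of 109 to 196 CPM against 150 to 387. Of 8 mural cell markers 6 were lower, with sums of 766 to 980 CPM against 568 to 668. Of 13 endothelial markers only Egfl7 was called, lower by 0.39, and the sums were 813 to 1082 CPM against 767 to 1039. No lymphatic endothelial marker of 5 was called. Of 6 adipocyte markers 2 were lower, of 6 brown adipocyte markers 1 was higher and 1 lower, of 7 tested lymph node markers 3 were higher, and of 5 hepatocyte markers 2 were higher. The shares of these last lists were near that of all tested genes. In bulk tissue, fewer cells of a type and less RNA per cell cannot be told apart.

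The fall of Vegfb, Nrp1 and Flt1 was measured again with these scores in the fit. With the muscle score in the model, the averaged log2 fold changes were -0.70 for Vegfb, -0.52 for Nrp1 and -0.37 for Flt1 (adjusted p = 2.9e-05, 0.0014 and 0.0097, 26.4% of all genes called). With the endothelial score they were -0.68, -0.61 and -0.36 (adjusted p = 3.1e-06, 6.6e-05 and 0.00096, 36.1% called). In the libraries with a muscle score of at most 6, which kept all 10 of WT and FGF21 KO mice, 3 of UCP1 KO and 2 of dKO mice and was a limit chosen after seeing the data, Vegfb fell by 0.72, Nrp1 by 0.55 and Flt1 by 0.41, and Vegfa was called too (-0.31, adjusted p = 0.0016), with 33% of genes called. For the averaged contrast all 3 genes kept their call in each of these fits. Within pairs, the low-score libraries gave calls for Vegfb and Nrp1 in UCP1 KO against WT (background 23.3%), and for Vegfa, Vegfb, Flt1 and Nrp2 but not Nrp1 in dKO against FGF21 KO (background 13%). Over all 4 genotypes 5 members were called there (background 28.4%). Kdr moved from -0.26 to -0.13 with the muscle score and to -0.16 with the endothelial score. The part of mural cells and macrophages in these results was not tested.

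Genes that act with the VEGF family in BAT were split in direction, under the same test and background of 38.4%. All tested genes were split as well, with 3236 called higher and 2806 called lower of 15729. The share called in each list was near or below the background, and the counts say nothing particular about these lists. Among 10 other VEGF and angiopoietin genes 2 fell, Angpt1 (-1.24 ± 0.19, adjusted p = 4.1e-05), a ligand that stabilises vessels, and its endothelial receptor Tek (-0.44 ± 0.05, 2.4e-06). The list median was -0.07. Among 12 neuropilin partners, 4 rose and 1 fell. Sema3a rose by 1.02, and the plexins Plxna4 and Plxna2, which signal with neuropilins, rose by 0.61 and 0.51, while Sema3b fell by 0.73. Among 11 genes of oxygen sensing and VEGF-A regulation, Hif1a rose by 0.55 and 3 fell, the oxygen sensor Egln1 by 0.57, Hif1an by 0.27 and Arnt by 0.26. Among 12 hypoxia-responsive genes, Adm, a vasodilator peptide, rose by 0.85 and 4 fell, with Ankrd37 (-2.47), Bnip3 (-1.10) and Pdk1 (-0.54) moving most. Among 8 tip cell and Notch genes, the apelin receptor Aplnr rose by 0.98 and the pericyte recruiting ligand Pdgfb fell by 0.49. The list medians were 0.12 for the neuropilin partners, -0.13 for oxygen sensing, -0.24 for hypoxia-responsive and -0.22 for tip cell and Notch genes, against 0.0089 over all genes. Muscle and macrophage markers rose in the same libraries, and their part in these lists was not tested.

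**Figure D3:**
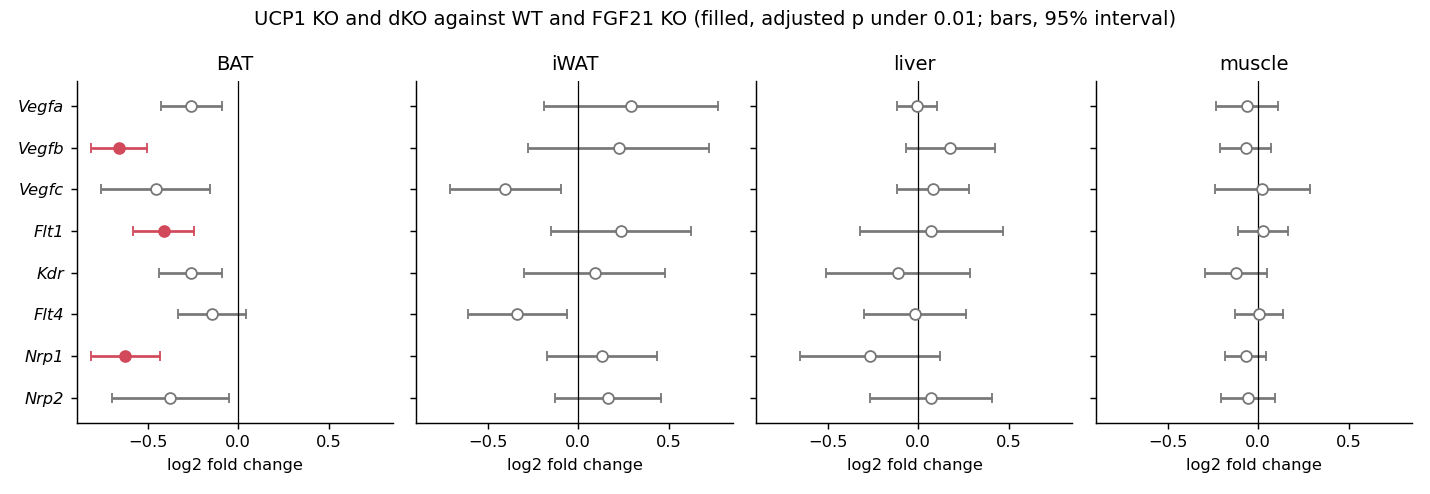
Log2 fold change (horizontal axis) of each gene (vertical axis) in UCP1 KO and dKO against WT and FGF21 KO, in each tissue, with the 95% interval as a bar (from the t distribution of the test) and filled points for an adjusted p under 0.01. Filled points are Vegfb, Flt1 and Nrp1 in BAT, and the intervals in iWAT are the widest for Vegfa and Vegfb.

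In iWAT, the depot in which brown-fat-like cells can appear, no member was called in any comparison. Over the same averaged contrast 0 of 8 were called by edgeR (0.127% of 17380 genes called, 0.0287% to 1.84% with a library left out) and by DESeq2 (2.77%). In edgeR 2838 of the 17380 genes had an unadjusted p under 0.05, among them 2 members. Those 2 were Vegfc (-0.40 ± 0.15, adjusted p = 0.17) and Flt4 (-0.34 ± 0.13), the lymphatic ligand and its receptor. For the libraries labelled UCP1 KO against WT, 0.61% of genes were called (0.092% to 2.07% with a library left out), and the same pair had the largest differences of the family (Vegfc -0.55 ± 0.21 and Flt4 -0.49 ± 0.18). The direction for the other members was not resolved, since the interval for Vegfa was -0.60 to 0.76 and for Vegfb -0.72 to 0.69. No member was called in UCP1 KO against dKO (0.466% of genes called), dKO against FGF21 KO (0.0115%) or FGF21 KO against WT (0.00575%). The interaction (0%) and the test over all 4 genotypes (1.74%) called none either. At an unadjusted p under 0.05 the members numbered 2, 1, 2, 0 and 2 in that order. All genes at that threshold numbered 2475, 1499, 3024, 1734 and 3907 of 17380. DESeq2 called none in these either, where it called 0.0117% of all genes in dKO against FGF21 KO, 0.246% in FGF21 KO against WT, 0.363% in the interaction, 3.13% in UCP1 KO against dKO, 3.49% in UCP1 KO against WT and 7.39% over all genotypes. With the muscle score as covariate, no member was called for the averaged contrast in iWAT (0.109% of genes), and Vegfc and Flt4 gave -0.40 and -0.33.

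The lymph node score went with the level of most members in iWAT. In the 9 libraries with a high score, 2 of them WT, 4 FGF21 KO, 1 UCP1 KO and 2 dKO, Vegfa ranged from 119 to 348 CPM, against 320.5 to 512 in the 11 with a low score. Vegfb ranged from 25.3 to 69.9 CPM against 68.6 to 107.7, and Flt1 from 37.7 to 87.6 against 82.8 to 116.5. For Nrp1 the ranges were 162 to 265 CPM and 276 to 349, which did not overlap, and for Kdr 91.4 to 179 and 136 to 225. Vegfc, Flt4 and Nrp2 did not separate in this way, with medians of 3.97, 15.8 and 70.8 CPM in the high and 3.72, 15.5 and 85.9 in the low libraries. The score was not a label of the study, and the libraries were split here by marker genes only. How many of all genes separate between these libraries was not counted, so the separation cannot be called particular to these members.

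**Figure D4:**
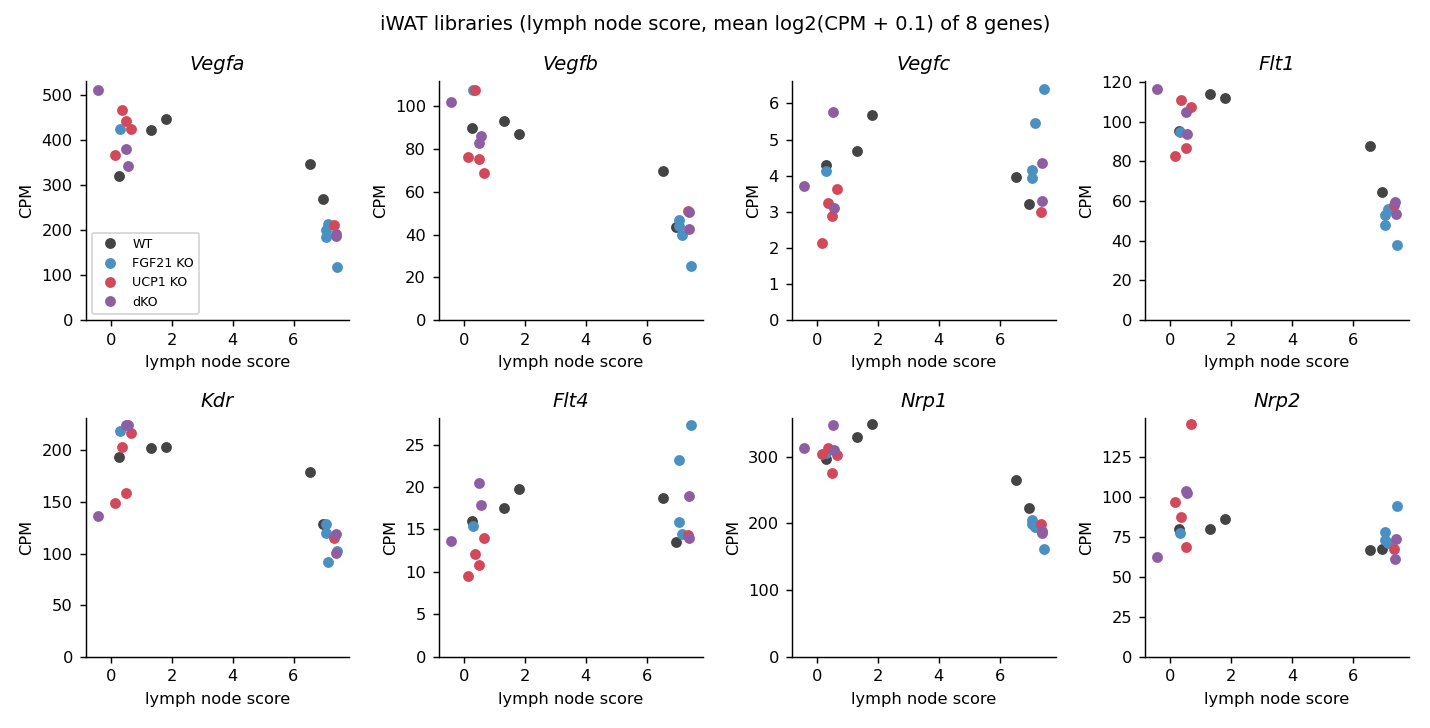
CPM of each gene (vertical axis) against the lymph node score (horizontal axis, mean log2(CPM + 0.1) of 8 genes) in 20 iWAT libraries, colored by genotype. FGF21 KO has 4 of its 5 libraries on the right, where Nrp1 lies at or below 265 CPM.

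With only the libraries of low score, the averaged log2 fold change of Vegfa moved from 0.29 to 0.02, of Flt1 from 0.24 to -0.01 and of Nrp1 from 0.13 to -0.03, and none was called (background 0.0124%). Vegfb moved from 0.22 to -0.21 (adjusted p = 0.47). Vegfc moved from -0.40 to -0.35 and Flt4 from -0.34 to -0.23 (adjusted p = 0.48 for both). In UCP1 KO against WT within these libraries, Flt4 gave -0.63 (adjusted p = 0.032) and Vegfc -0.74 (0.076), and no member was called where 4.1% of all genes were. Only 1 FGF21 KO library remained in that fit. With all iWAT libraries, none of the 53 partner and regulator genes of the fixed lists was called for the averaged contrast (0.127% of all genes called). In UCP1 KO against WT, where 0.61% of all genes were called, 2 rose. These were the nuclear receptor Esrra (0.92 ± 0.14, adjusted p = 0.0020) and the glycolytic enzyme Pgk1 (1.43 ± 0.24, 0.0040). In that comparison 4 of 6 brown adipocyte markers also rose, among them Elovl3 and Cidea, and no endothelial marker of 13 was called (median log2 fold change -0.40).

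Whether the BAT effect exceeded that in iWAT was tested in a joint fit of 40 libraries, added after seeing the data, in which 14.9% of 17004 genes were called. The effect of UCP1 loss was lower in BAT than in iWAT for Vegfb (difference of log2 fold changes -0.86 ± 0.25, adjusted p = 0.0087) and Nrp1 (-0.73 ± 0.17, 0.0013). For Flt1 (-0.63 ± 0.19, 0.015), Nrp2 (-0.52 ± 0.21, 0.060) and Vegfa (-0.53 ± 0.24, 0.093) it was not called. Without the 9 iWAT libraries of high lymph node score, a fit also added after seeing the data, 31 libraries remained and 8.04% of genes were called. Nrp1 kept its call (-0.61 ± 0.15, adjusted p = 0.0065), and Vegfb did not (-0.47 ± 0.15, 0.028). For UCP1 KO against WT alone none of the 8 passed (6.3% of genes called, Nrp1 -0.61, adjusted p = 0.079). Without the high libraries none passed either, where 12.6% of genes did (Vegfb adjusted p = 0.013, Nrp1 0.019).

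In liver, no member was called, although some group means lay apart, such as Kdr at 41.8 ± 17.8 CPM in WT and 28.7 ± 8.39 in UCP1 KO (SD, n = 5 each). The averaged contrast had 0 members with an unadjusted p under 0.05, against 1735 of 14407 genes (0.104% of genes called). The other comparisons also had 0 calls, with backgrounds of 0.0694% for UCP1 KO against WT, 0.00694% for dKO against FGF21 KO, 0.00694% for UCP1 KO against dKO, 0.229% for FGF21 KO against WT, 0% for the interaction and 0.34% over all genotypes. The interaction had 3 members with an unadjusted p under 0.05, where 743 of 14407 genes had one. The rest had no such member, where 973 to 1669 genes had one. Vegfa was the steadiest, with 151 to 203 CPM over 20 libraries and an interval of -0.12 to 0.10 for the averaged effect. Nrp1 was the least steady. Its WT values were 95.6, 94.9985, 199.8, 197.6 and 215.4 CPM and its UCP1 KO values 248.7, 92.5, 98.5, 92.3 and 102.4 CPM, while dKO and FGF21 KO ranged from 86.2 to 128 CPM. The 4 high libraries belonged to 2 genotypes, and UCP1 KO against WT was not called.

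In muscle, no member was called either. The averaged contrast had 0 members with an unadjusted p under 0.05, against 1479 of 15114 genes (0.106% of genes called). The shares of genes called were 0.0265% for UCP1 KO against WT, 0.0595% for dKO against FGF21 KO and 0% for UCP1 KO against dKO. They were 0.00662% for FGF21 KO against WT, 0% for the interaction and 0.086% over all genotypes. Flt4 in FGF21 KO against WT was the nearest to a call, at 9.81, 8.12, 8.73, 8.72 and 9.22 CPM against 8.04, 7.37, 6.12, 6.18 and 6.95 CPM. The groups did not overlap, as for 2.96% of all genes, and the log2 fold change was 0.36 ± 0.09 (SE, adjusted p = 0.051). The summed level of 5 lymphatic endothelial markers was 32.2 to 47.3 CPM in FGF21 KO and 29.9 to 34.2 CPM in WT muscle, with none of the 5 called, and its part in the Flt4 values was not tested. Flt4 was also the 1 member with an unadjusted p under 0.05 in that comparison and over all genotypes, where 1953 and 2470 of 15114 genes had one. DESeq2 called no member in liver, where it called up to 1.34% of genes in a comparison, or muscle, with up to 2.41%. Vegfb, which had fallen in BAT, ranged from 42.0 to 66.5 CPM over all muscle libraries, with an averaged change of -0.07.

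Within a tissue, each member was compared with all other genes after genotype means were removed, and the 5 genes with the highest mean Pearson r over the 4 tissues were taken. The libraries of a tissue share depth, cell mix and dissection, and the values describe likeness only. For Vegfa these were Sdhb (mean r 0.78), Acot13, Ict1, Ndufb10 and Etfa, genes of mitochondrial respiration and fatty acid metabolism among them. For Vegfb they were Coq9 (0.75), Pcyt2, Fahd2a, Mtfp1 and Mrpl18, of which several encode mitochondrial proteins. The receptors had other neighbours. Flt1 was most like Shroom4 (0.77), Adgrg1, Podxl, Adgrf5 and Ptprb, and Kdr like AK080982 (0.80), Tjp1, Cdh5, Pcdh12 and Erg, where Cdh5 and Erg are endothelial genes. Nrp2 was most like Usp8 (0.68), Pcdh12, Kdr, Tcf4 and Gabpa. Flt4 was most like Hmcn1 (0.64), Hmbox1, Dchs1, Arhgap31 and Zbtb46, and Nrp1 like Dock1 (0.70), BC064032, Fitm2 and Fam126b. Vegfc, with few counts, reached only 0.46 (Rab2b), followed by Bre, Dtwd2, Tnfaip8l1 and Tmed4. Among the members themselves, the most alike were Kdr and Nrp2 (0.64), Flt1 and Kdr (0.61) and Vegfa and Vegfb (0.61), the last with 0.91 in iWAT and 0.12 in BAT.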

How the data were processed

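Mouse RNA was sequenced as poly(A) libraries (100 bp paired-end). The authors mapped the reads to mm10 by STAR, counted them per UCSC gene with HTSeq and deposited whole-number read counts, 1 library per file. The strand option is not given in the sources used here. Groups came from the labels. Rows naming no gene were left out (at most 3.42e-05 percent of counts). Kept per tissue were genes whose highest count exceeded 15, whose counts summed to over 75 and which were at 0 in at most 10 of 20 libraries. TMM-scaled counts were fitted with edgeR's quasi-likelihood F test (edgeR 4.0.16, limma 3.58.1, R 4.3.3), p-values were Benjamini-Hochberg adjusted over all tested genes, and an adjusted p under 0.01 was called. The study's tool, DESeq2 (1.42.0), was an alternative, as were RLE factors, library totals alone (WT tissues), no filter, a threshold of 0.05, score covariates and leaving out each library. The scripts were tested on simulated counts. Log2 CPM used a prior count of 2, and standard errors follow from the fold change and its F statistic, and intervals use the t distribution with the degrees of freedom of that test. Exon lengths are from GENCODE M21. Labels link no libraries to mice, so p-values measure the spread between libraries. All 8 members were described, up to 3 called genes per list and direction were named by size of change, and 5 like genes per member, of which 1 is not reported here. Members and lists were chosen with earlier results of these data known.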

Additional observations from a re-analysis of the deposited data

Results flagged for a closer look

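Of 128 sets of 5 libraries (8 genes in 16 groups), 5 had a highest or lowest library whose gap to the next exceeded 0.71 of the range. Chance gives about 1 in 20 such sets. Vegfa in 1 FGF21 KO BAT library was at 614 CPM, with the other 4 between 542 and 554. Vegfb in 1 FGF21 KO iWAT library was at 107.7 CPM, with the others between 25.3 and 46.6, and this was the 1 FGF21 KO library with a low lymph node score. Nrp1 in 1 UCP1 KO liver library was at 248.7 CPM, with the others between 92.3 and 102.4. Nrp2 in 1 FGF21 KO liver library was at 9.80 CPM, with the others between 17.9 and 21.0. Vegfb in 1 FGF21 KO muscle library was at 66.5 CPM, with the others between 50.2 and 53.9.

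The effect of UCP1 loss differed between BAT and iWAT for Vegfb, by -0.86 on the log2 scale, and for Nrp1, by -0.73. The lymph node scores of the iWAT libraries were unequal between genotypes, and without the 9 high ones the differences were -0.47 for Vegfb (adjusted p = 0.028, no longer called) and -0.61 for Nrp1 (0.0065).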

How the results depend on the processing

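In BAT, the count of members called for the averaged loss of UCP1 was 3 (38.4% of all genes called), and it was 6 with DESeq2 (42.3%), 7 at an adjusted p under 0.05 (52.2%) and 3 to 5 when each library was left out in turn (34.9% to 41%; 5 without UCP1 KO replicate 1 or 4). Vegfb, Nrp1 and Flt1 were called in all 20 of those fits. For dKO against FGF21 KO the count was 2 (13.5% of all genes), with 1 under the skeletal muscle covariate (8.23%), 4 in the libraries of low muscle score (13%, chosen after seeing the data, Nrp1 not among them) and 1 to 3 with a library left out (8.77% to 16.6%). With a low muscle score, UCP1 KO against dKO gave 1 (Nrp2, 1.11, adjusted p = 0.0058, 3 libraries against 2, 1.29% of all genes) and all 4 genotypes gave 5 (28.4%). Why these counts moved was not tested. No called value changed sign in any alternative within a tissue. Between WT tissues, library totals in place of TMM, an alternative chosen after seeing the data, turned 6 log2 differences that were called on either scale: Flt4 in BAT against iWAT (to -0.58), Vegfa, Vegfc and Nrp1 in iWAT against liver (to 1.02, 0.44 and 0.84) and Vegfa and Vegfb in iWAT against muscle (to 0.17 and 0.53). RLE factors and DESeq2 turned no called difference. The count of 0 in iWAT, liver and muscle stayed at 0 in all alternatives run, including an adjusted p under 0.05. The share of all genes called differed widely among these alternatives, up to 15% in iWAT (UCP1 KO against WT with the endothelial covariate), 1.34% in liver and 2.41% in muscle. Among single fold changes, 62 of 1376 values in iWAT moved by more than their standard error, where most values came from leaving out 1 library. In the libraries of low lymph node score 24 moved and 24 did not. With the endothelial covariate 22 moved and 26 did not. The difference between BAT and iWAT was called for 2 members, and for 1 (Nrp1) without the iWAT libraries of high lymph node score. In WT, with single libraries left out, the call of BAT against muscle held in 5 of 20 fits for Vegfb and in 16 for Vegfa, and the Kdr call of iWAT against muscle in 13. In BAT against liver Nrp1 was called by DESeq2, by library totals and in 1 of 20 such fits. The low counts of Vegfc limit what can be said of it. No paired analysis was possible because the labels carry no replicate numbers (those used here only name libraries, in the order of deposit) and do not tie libraries to mice.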
